A study of Mus musculus with 16 samples.

Results

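The cytosolic ribosomal proteins are the protein parts of the large (60S) and small (40S) subunits of the ribosome that translates nuclear messages. They were taken as every gene of the array whose only platform symbol has the form of a ribosomal protein name (Rpl or Rps and a number, or Rplp0, Rplp1, Rplp2 and Rpsa), with the brightest probe set standing for its gene. This gave 49 genes of 18193 with 1 symbol, 26 of the 60S and 23 of the 40S subunit. RefSeq lists 48 of them as protein-coding and Rps4l as a transcribed pseudogene. A further 28 ribosomal protein genes, Rplp1 and Rpl5 among them, appear only on probe sets that also list other symbols, mostly pseudogenes, and are not members.

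Expression was measured in the whole left lung of male Balb/c mice aged 15 weeks, with 4 arrays in each of 4 groups. SS mice were exposed to second-hand smoke (SHS) both in utero and as adults, AS mice to air in utero and SHS as adults, SA mice to SHS in utero and air as adults, and AA mice to filtered air at both times. SHS was sidestream smoke with 10 mg/m3 of particles, and sessions of smoke or air lasted 5 hours on each of 7 days a week. All groups share strain, sex and age, and the labels do not give when adult exposure began.

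Array medians lay between 6.9 and 6.93 on the log2 scale. Over the 300 most variable bright probe sets, the root mean square difference was 0.0721 between SS arrays 1 and 2 and 0.0983 between AS arrays 3 and 4. It was 0.313 to 0.739 in the 22 remaining pairs of arrays within a group. Over the 3000 least variable bright probe sets, AS arrays 3 and 4 differed from AS arrays 1 and 2 by 0.207 to 0.257. Every other pair within a group differed there by at most 0.132. SS arrays 1 and 2 were averaged to 1 sample, as were AS arrays 3 and 4, which left 3 SS, 3 AS, 4 SA and 4 AA samples. The lung identity was borne out by Sftpc, the surfactant protein of type 2 cells, at 15.01 to 15.10, and by Scgb1a1 of club cells at 14.91 to 14.98 in all samples. The arrays read a whole organ, so fewer cells of a type and less RNA per cell cannot be told apart.

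A ribosome holds 1 copy of nearly every usual ribosomal protein, and the genes of these are expressed together in all cells. Forms made in some tissues, such as Rpl3l and Rpl39l, and the pseudogene Rps4l are not covered by this. Messages of the usual proteins are known to begin with a terminal oligopyrimidine (TOP) tract, a C followed by a run of C and T bases. Through it the growth kinase mTOR and the binding protein Larp1 control their translation. Control of ribosomal proteins is therefore known to lie largely in translation, which an array of total RNA does not read.

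The starts of 43 members were found in the RefSeq promoter table, and 6 had no entry. A few are shown to let the tract be seen where it is present and where it is not; they were picked by hand and do not represent the frequency among all members. Each stretch runs from 20 bases before to 20 after the annotated start on the strand of the gene, in the build GRCm38.p6, and capitals mark the longest run of C or T where it reaches 8 bases.
Rps6, chr4:86857348-86857387, minus strand: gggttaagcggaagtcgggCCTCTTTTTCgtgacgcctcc
Rps27, chr3:90213629-90213668, minus strand: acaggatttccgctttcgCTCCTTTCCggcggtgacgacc
Rpl14, chr9:120571497-120571536, plus strand: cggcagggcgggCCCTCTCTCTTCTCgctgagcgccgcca
Rplp2, chr7:141447631-141447670, plus strand: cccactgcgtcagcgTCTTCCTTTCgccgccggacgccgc
Rpl35, chr2:39005112-39005151, minus strand: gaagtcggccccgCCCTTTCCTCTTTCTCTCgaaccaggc
Rpl22l1, chr3:28805488-28805527, plus strand: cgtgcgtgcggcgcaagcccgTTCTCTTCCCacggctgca
Rpl3l, chr17:24727806-24727845, plus strand: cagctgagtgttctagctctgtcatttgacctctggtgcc

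In the first 5 of these the annotated start lies inside the tract. In Rpl22l1, a paralog of Rpl22, the tract follows the start, and Rpl3l, the form of Rpl3 made in heart and skeletal muscle, has no run of 8 there. Of 51 annotated starts of the members, 20 (39.2%) had such a run within 20 bases, against 16.0% of all 32851 starts in the table. A C followed by 4 bases of C or T exactly at the start was present at 8 of the 51 (15.7%), against 2.51% of all starts. The motif CCGGAAG on either strand, the core bound by ETS factors, was present in 21 of the 51 windows of 250 bases before to 50 after the start (41.2%), against 8.86% of all. TATAAA in the 50 bases before the start was present at 1 member start (1.96%), against 2.63% of all. These counts describe letters in annotated windows and are not measurements of binding.

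The members gave a strong and narrow signal. Of the 49, 36 had a mean log2 value of at least 10, and all 36 were in the brightest 5% of probe sets. Their SD within groups was 0.031 to 0.113 with a median of 0.048, against a median of 0.087 over all 3591 genes with a mean of at least 10. The 34 members with a mean of at least 12 also had a median of 0.048, against 0.073 for all 628 genes that bright. The other 13 members were represented by dim probe sets with a median SD of 0.127, and 3 of these, Rpl39l, Rpl3l and Rps16, had means under 6. Rpl3l and Rpl39l are forms known from muscle and testis, while Rps16 is a constitutive 40S protein whose only probe set with a single symbol is dim. Rpl12, Rpl14, Rpl27a, Rpl37, Rpl39, Rps6, Rps25 and Rps27 are also constitutive and were read at means of 6.96 (Rpl39) to 9.40 (Rpl37). Whether the dim probe sets of these genes and of Rps16 read the main messages was not tested.

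No member passed the threshold in any comparison (limma, 0 of 49 in each, with 4, 0, 0, 2 and 1 members under an unadjusted p of 0.05 in AS minus AA, SS minus SA, SA minus AA, SS minus AS and SS minus AA, and 0 in the interaction). An unmoderated test also passed 0, but it passed at most 302 of all 45037 probe sets in a comparison (SS minus SA). A count of 0 of 49 therefore says little there. The 95% intervals of all 49 differences lay within 1.5-fold in either direction in each of the 5 comparisons of 2 groups. For the 36 members with a mean of at least 10, the intervals of these comparisons reached no lower than 0.833-fold (Rps19 in SS minus AA) and no higher than 1.19-fold (Rplp0 in AS minus AA). Intervals beyond these bounds were all at dimmer members, such as Rpl27a, Rpl37 and Rps4l.

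**Figure D1:**
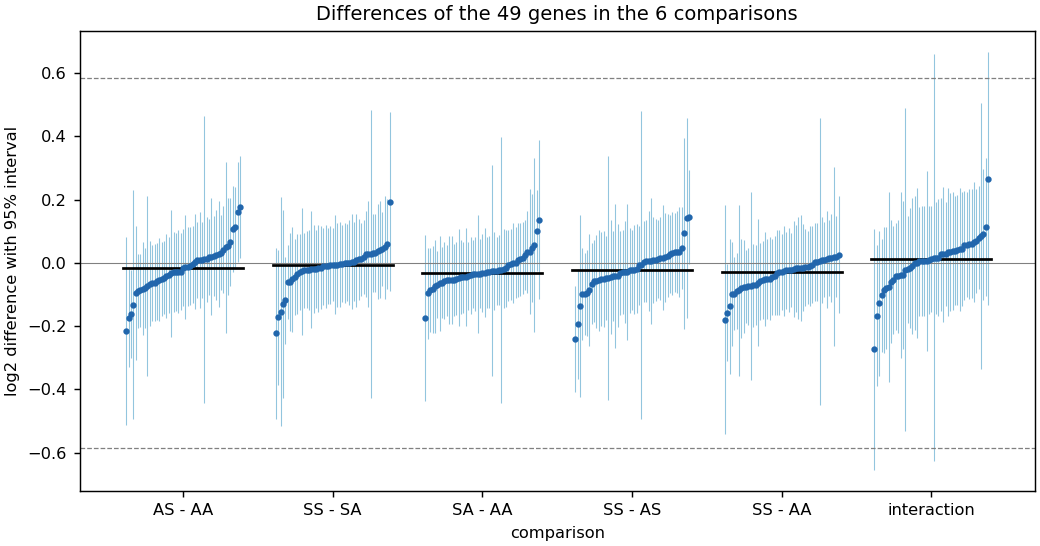
Difference of each of the 49 ribosomal protein genes (points, ordered within a comparison) with its 95% interval (vertical lines), in log2 units, for the 5 comparisons of 2 groups and the interaction; black bars are medians and dashed lines mark 1.5-fold. All intervals of the 5 comparisons lie between the dashed lines, and 46 of 49 do for the interaction.

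The first comparison asked what adult SHS does after air in utero (AS minus AA). The median of the members was -0.015 on the log2 scale, against 0.017 over all probe sets, with 20 higher and 29 lower. The split was 13 higher and 36 lower without AS replicates 3 and 4, and 22 and 27 without AS replicate 2. With 1 sample left out the member median ranged from -0.035 to -0.006. The median over all probe sets depends on brightness, and most members are bright. Over probe sets with a mean of at least 6 it was -0.022 in AS minus AA and -0.015 in SS minus SA. The member medians of -0.015 and -0.006 were not below these. In SA minus AA, SS minus AS and SS minus AA the median over probe sets with a mean of at least 6 was 0.007, 0.01 and -0.007. The member medians there, -0.032, -0.022 and -0.029, were each below it. A cut at 6 does not match the brightness of the members, and medians at matched brightness were not computed. In AS minus AA none of the 49 passed, where 1.55% of all probe sets did. Under an unadjusted p of 0.05 were 4 members (8.16%), against 20.3% of all probe sets. Among members with a mean of at least 12, 2 of 34 differed by more than 0.1, against 33.1% of all genes that bright. The values of the 2 groups did not overlap for 7 members (3 higher, 4 lower), where 16.3% of all probe sets had no overlap.

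The members with the lowest p-values in AS minus AA were from dim or medium probe sets. Rpl14, a 60S protein, had 7.25, 7.14 and 7.18 in AS (the last being the averaged replicates 3 and 4, here and below), against 7.37, 7.44, 7.31 and 7.35 in AA. All AS values were below all AA values, and the difference of -0.17 ± 0.07 did not pass (limma, adjusted p = 0.2). Rpl7l1, a paralog of Rpl7 that works in ribosome assembly, had 9.80, 9.92 and 9.78 in AS and 9.91, 10.04, 10.03 and 10.00 in AA. Its groups overlapped by 1 value, and the difference was -0.16 ± 0.07 (adjusted p = 0.186, limma). Rps27, a zinc-finger protein of the 40S subunit, had 7.54, 7.58 and 7.68 in AS and 7.48, 7.38, 7.50 and 7.39 in AA. These groups did not overlap either, with a difference of 0.16 ± 0.07 (adjusted p = 0.236, limma).

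Rpl3l had 4.53, 4.49 and 4.65 in AS and 4.43, 4.36, 4.33 and 4.40 in AA, with a difference of 0.18 ± 0.08 (limma, adjusted p = 0.211) at a very dim probe set. The extremes among the others were Rpl27a, of the 60S subunit, at -0.21 ± 0.14 and Rpl39l at -0.13 ± 0.17, followed by Rpl12 at -0.10, and on the higher side Rps14 at 0.11 and Rpl39 at 0.07. Bright members that did not overlap were Rpl10a, Rpl19 and Rpl22 on the lower side and Rps14 on the higher, with differences from -0.09 to 0.11. Rpl10a, for example, had 13.00, 12.98 and 12.99 in AS and 13.05, 13.09, 13.12 and 13.06 in AA.

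Adult SHS after SHS in utero (SS minus SA) gave a median of -0.006 against 0.009 over all probe sets, with 19 members higher and 30 lower. This split turned with the setting: it was 29 higher and 20 lower with arrays centred on their median, 28 and 21 without SS replicates 1 and 2, and 11 and 38 without SA replicate 4. None passed, where 1.64% of all probe sets did, and none had an unadjusted p under 0.05, where 14.5% of all did. Of the 34 members with a mean of at least 12, 0 differed by more than 0.1, against 22.9% of the genes that bright. Rps3, which lines the entry of the mRNA channel, was the only member without overlap between SS and SA, with 13.55, 13.53 and 13.50 in SS (the first being the averaged replicates 1 and 2, here and below) against 13.48, 13.48, 13.49 and 13.48 in SA, where 16.7% of all probe sets had none. The largest differences were at dim probe sets, with Rps16 at -0.22 ± 0.13, Rpl12 at -0.17 ± 0.10 and Rpl37 at 0.19 ± 0.13. Next came Rpl39l at -0.15, Rpl27a at -0.13 and Rpl7l1 at -0.12 on the lower side, and Rpl41 at 0.06, Rpl3l at 0.05, Rps3 at 0.04 and Rpl27 at 0.04 on the higher. Rps27 and Rpl14, extreme in the other comparison of adult smoke, had -0.01 ± 0.07 and -0.06 ± 0.07 here.

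In adults kept in air, SHS in utero (SA minus AA) gave a median of -0.032 against 0.000 over all probe sets, and 38 of the 49 members were lower. Passing were 0 members, as were 0.0% of all probe sets, and 0 members had an unadjusted p under 0.05 (6.23% of all). None of the members had groups without overlap, against 3.68% of all probe sets. The lowest was Rpl37 at -0.17 ± 0.12 and the highest Rps16 at 0.14 ± 0.12, both from dim probe sets. Next were Rpl14 at -0.10, Rpl41 at -0.09, Rplp2 at -0.08 and Rps27 at -0.07, and on the other side Rpl7l1 at 0.10, Rpl27a at 0.06, Rpl22l1 at 0.05 and Rpl12 at 0.04. Without SA replicate 4 the median was -0.004 and 27 of 49 members were lower.

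SA replicate 4 stood apart within its group. Its member median was -0.103 relative to the AA mean, while the other SA samples had -0.021, -0.002 and -0.014. It was below the other 3 SA samples at 30 of the 36 bright members and the lowest of all 14 samples at 18. The share over all genes that bright was not computed. Of other bright genes, Sftpc (15.01) and Scgb1a1 (14.91) were also lowest in this lung, while Eef2 (12.87) was not. Rps19, a 40S maturation protein, had 12.82 there against 13.11 to 13.15 in the other SA samples, and Fau, whose product includes a 40S protein fused to a ubiquitin-like one, had 13.12 against 13.33 to 13.37. The same lung had a mean of 1.19 above AA over 7 of 8 listed markers of cycling cells, where the other 13 samples lay between -0.10 and 0.11, and of 1.66 over 4 of 8 listed erythroid markers, where the others lay between -0.46 and 0.74. Fibroblast and smooth muscle markers were at 0.34 there (the others at -0.24 to 0.19) and endothelial markers at -0.14 (the others at -0.09 to 0.23). The part of these cells in its ribosomal protein values was not tested.

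**Figure D2:**
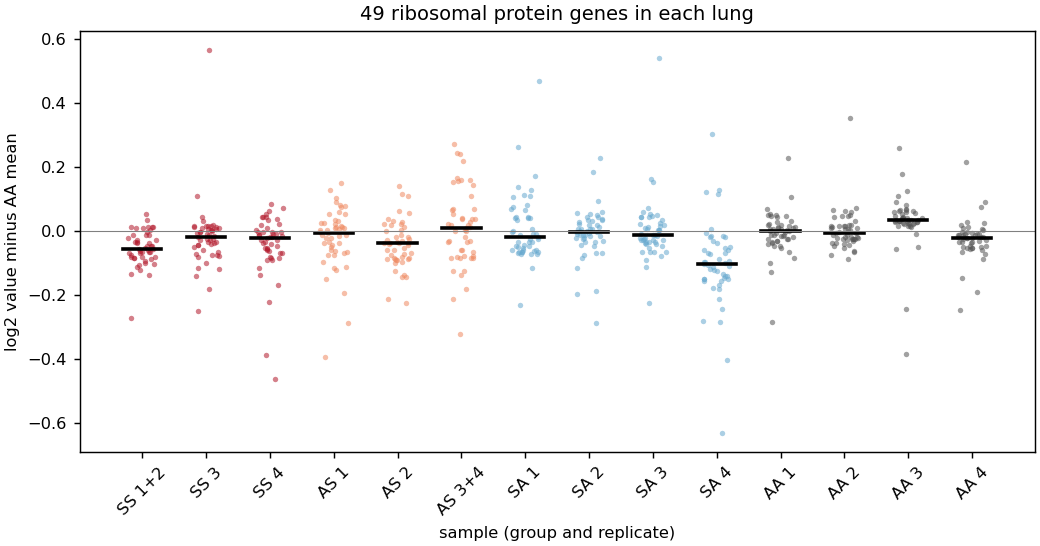
Log2 value of each of the 49 genes (points) in each of the 14 samples, minus the gene's mean in AA, with the sample's median as a black bar; 1+2 and 3+4 are averaged pairs of arrays. Medians run from -0.103 in SA 4 to 0.034 in AA 3.

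Group means of the sample medians were -0.033 ± 0.021 in SS (SD, n = 3), -0.012 ± 0.025 in AS (SD, n = 3), -0.035 ± 0.046 in SA (SD, n = 4) and 0.001 ± 0.024 in AA (SD, n = 4). The groups overlap in these medians, and the SD in SA comes mostly from replicate 4. The bright members varied together between lungs: after group means were removed, the median correlation over 630 pairs of the 36 was 0.434 across the 14 samples, 518 pairs being above 0, while over all genes with a mean of at least 10 it was 0.026. SA replicate 4 carried part of this, since without it the values were 0.226 and 0.025. The 13 dim members had a median of -0.05. Samples share normalization and array, so these correlations are a description only.

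In adults exposed to SHS, the effect of SHS in utero (SS minus AS) had a median of -0.022 against -0.010 over all probe sets, with 20 members higher and 29 lower, or 27 higher and 22 lower without AS replicates 3 and 4 (median 0.004). None passed, where 0.968% of all probe sets did, and 2 had an unadjusted p under 0.05 (4.08%, against 13.6% of all). Rps27 had the lowest p, with 7.30, 7.39 and 7.38 in SS against 7.54, 7.58 and 7.68 in AS. No SS value reached the AS range, and the difference was -0.24 ± 0.08 (limma, adjusted p = 0.184), an interval of -0.41 to -0.07. It passed when all 16 arrays were counted as separate samples (-0.28, adjusted p = 0.0269, limma), where 2214 of all 45037 probe sets passed. With the replicate number as a block it also passed (adjusted p = 0.0341, limma), where 2364 did. Both fits count the near-identical arrays as separate lungs. Rpl3l had 4.39, 4.26 and 4.44 in SS and -0.19 ± 0.08 against AS. Rpl38 and Rps14 also had no overlap, each lower in SS, making 4 members where 18.6% of all probe sets had none. The highest was Rpl7l1 at 0.15 ± 0.07 (adjusted p = 0.375, limma), with 9.95, 9.91 and 10.07 in SS. Rpl27a at 0.14, Rpl37 at 0.09, Rpl6 at 0.05 and Rps6 at 0.04 followed it, and Rps16 at -0.14 and Rplp0 at -0.10 were among the lowest.

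Both exposures against neither (SS minus AA) gave a median of -0.029 against 0.008 over all probe sets, with 38 members lower and 11 higher, and 0 past the threshold (0.4% of all). With arrays centred on their median, 30 were lower and 19 higher. Rpl14 alone had an unadjusted p under 0.05, where 10.3% of all probe sets did, with 7.09, 7.34 and 7.20 in SS and a difference of -0.16 ± 0.07 (limma, adjusted p = 0.478). Groups did not overlap at 6 members, all lower in SS (Rpl10a, Rpl19, Rpl38, Rpl8, Rps19 and Rps4x), against 14.1% of all probe sets. Rps19 had 12.97, 13.03 and 13.01 in SS and 13.09, 13.13, 13.12 and 13.07 in AA, which is -0.10 ± 0.08. The other low values were Rpl39l at -0.18, Rpl12 at -0.14 and Rpl19 at -0.10, while the highest were Rpl22l1 at 0.03, Rps14 and Rpl37 at 0.02, Rpl39 at 0.02 and Rps29 at 0.01. Markers of B and plasma cells were low in SS, with means over 9 of 10 listed genes of -0.48, -0.86 and -0.46 relative to AA, where the AA samples lay between -0.33 and 0.38. Markers of T and NK cells, 10 of 12 listed, had -0.34, -0.26 and -0.31 in SS, against -0.17 to 0.23 in AA. No gene of either list passed in SS minus AA. Median differences there were also low for markers of neutrophils (-0.24), cardiac muscle (-0.198) and ciliated cells (-0.104), but not for all lists (club cells 0.031, erythroid cells 0.133). In SA, where the group mean of the member medians was -0.035 against -0.033 in SS, B and T cell markers had means of -0.081 and -0.075. The part of any of these cells in the ribosomal protein values was not tested. The comparisons with SS or AA share samples, so they do not bear on each other independently.

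The interaction, which asks whether the adult effect differs between the in-utero groups, had a median of 0.012 against -0.008 over all probe sets, and of -0.009 without SA replicate 4. None of 49 passed (0.131% of all did), and 0 had an unadjusted p under 0.05 (9.11% of all). Rps27 was at -0.17 ± 0.10, the lowest p among the members (limma, adjusted p = 0.677), and Rps16 and Rpl37 had the extreme values of -0.27 ± 0.18 and 0.27 ± 0.19.

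**Figure D3:**
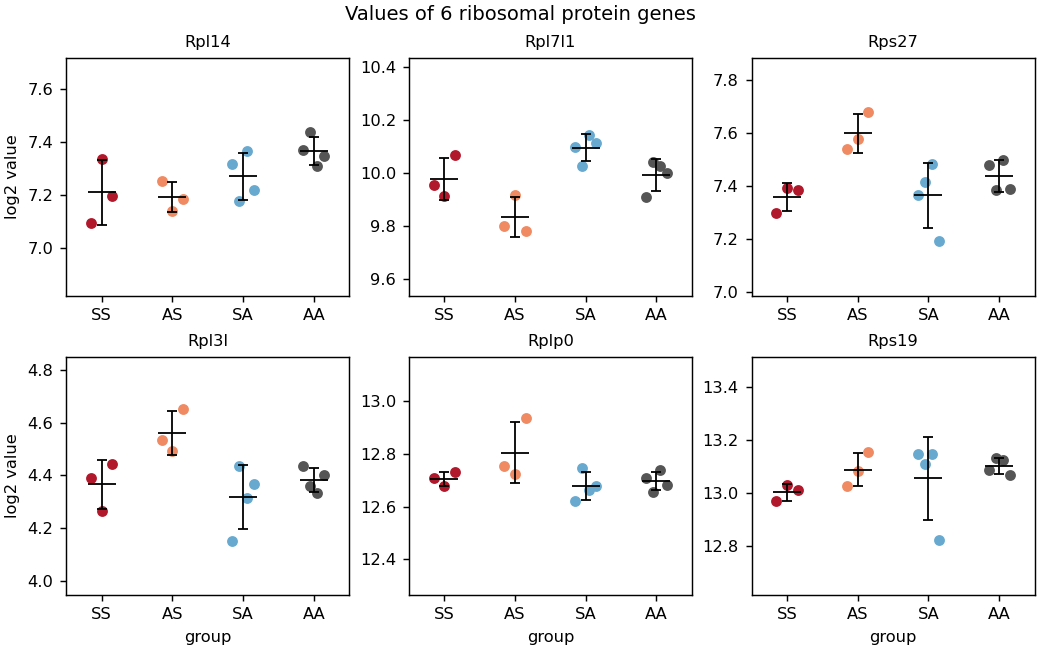
Log2 values of Rpl14, Rpl7l1, Rps27, Rpl3l, Rplp0 and Rps19 in each sample (points) by group, with the mean and SD as bars (n = 3 for SS and AS, n = 4 for SA and AA); each panel spans the same 0.9 log2 units. Rps27 and Rpl3l are highest in AS, Rpl14 is highest in AA, and 1 SA lung lies low for Rps19.

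By role, the acidic stalk of the 60S subunit, which recruits elongation factors, was covered by Rplp0 and Rplp2. Rplp0 had 12.75, 12.72 and 12.94 in AS, against 12.71, 12.66, 12.74 and 12.68 in AA, so that the averaged AS replicates 3 and 4 lay above every other sample. Its partner Rplp2 had 13.59, 13.44 and 13.68 in AS and 13.68, 13.62, 13.71 and 13.58 in AA. The differences were 0.11 ± 0.06 and -0.08 ± 0.07 (limma, adjusted p = 0.349 and 0.512). Rpl11, which with 5S RNA can bind the p53 regulator Mdm2, differed by no more than 0.03 in any comparison of 2 groups.

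Rps6, the substrate of S6 kinase, was read by a dim probe set with 8.35, 8.42 and 8.39 in SS, 8.35, 8.38 and 8.33 in AS, 8.46, 8.37, 8.45 and 8.27 in SA and 8.37, 8.38, 8.44 and 8.49 in AA. These groups overlap throughout, with differences from -0.07 to 0.04. Rpsa, the 40S protein that also serves as a laminin receptor, had 12.97, 12.93 and 12.88 in SS and 13.03, 12.96 and 13.09 in AS, a difference of -0.10 ± 0.06 (limma, adjusted p = 0.498). Rpl13a, a usual reference gene of quantitative PCR, ranged over the 14 samples from 13.68 to 13.92.

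Near the peptide exit tunnel lie Rpl4, Rpl19, Rpl22, Rpl35, Rpl38 and Rpl39, whose list medians were -0.04 in AS minus AA and -0.02 in SS minus SA. The 40S proteins Rps2, Rps3, Rps3a1, Rps14, Rps15, Rps26 and Rps28, which lie along the path of the mRNA, had 0.00 and 0.01. Of 16 listed genes mutated in human Diamond-Blackfan anaemia, in which red cell production fails, 10 were measured, and their medians lay between -0.04 and 0.01 in the 5 comparisons. None of these lists had a member past the threshold.

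Of the paralogs, which replace a usual protein in some tissues or have roles of their own, 6 were measured. Rpl39l had 4.70, 4.72 and 4.40 in SS, 4.39, 4.75 and 4.82 in AS, 4.72, 4.50, 5.33 and 4.50 in SA and 4.72, 4.70, 4.91 and 4.81 in AA, a spread over single lungs with no group apart. The pseudogene Rps4l ranged from 9.13 to 10.16 with an SD within groups of 0.329, the highest of all members, and its differences lay between -0.02 and 0.03. Rps27l, a p53-responsive form of Rps27, stayed between 11.81 and 11.93, and Rpl22l1 between 11.55 and 11.99.

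Over all 105 probe sets of the 49 genes, 1 passed in AS minus AA, where 1.55% of all probe sets did, and 0 in the other comparisons. A count of 1 in 105 is no higher than that overall share. The probe set was the fifth brightest of the 6 probe sets of Rps24, a 40S protein needed for maturation of the 18S rRNA, with 8.77, 8.84 and 8.83 in AS, against 9.07, 9.56, 9.38 and 9.41 in AA. Every AS value was below every AA value, and the SS and SA samples had 9.36, 9.19 and 9.19 and 9.57, 9.32, 9.34 and 9.48. The difference from AA was -0.54 ± 0.10 (limma, adjusted p = 0.0209). It did not pass without AA replicate 2 (-0.47, adjusted p = 0.0616, limma) or without AS replicates 3 and 4 (-0.55, adjusted p = 0.0509, limma). SS minus SA was -0.18 ± 0.10 at this probe set, and the difference between the 2 adult effects did not pass (0.36 ± 0.14, adjusted p = 0.449, limma). The brightest Rps24 probe set, at a mean of 13.84, had -0.01 ± 0.06 in AS minus AA, and the other 4 ranged from -0.15 to 0.12. What the probe set reads other than Rps24 message was not tested.

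**Figure D4:**
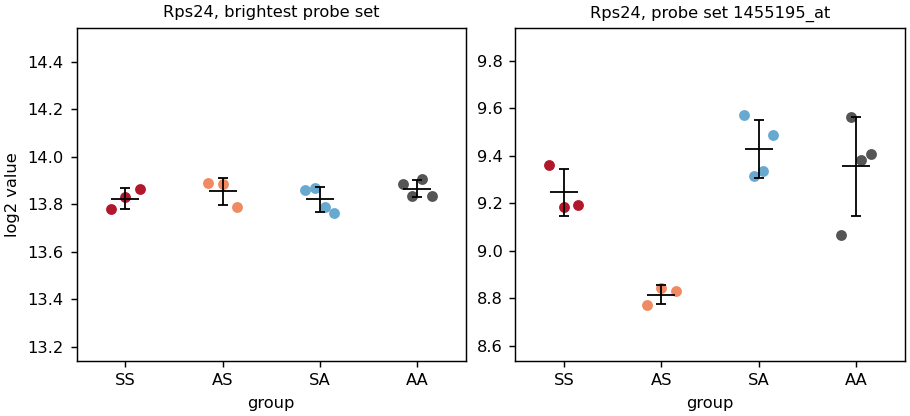
Log2 values of the brightest probe set of Rps24 (left) and of the fifth brightest probe set (right) in each sample by group, with the mean and SD; both panels span 1.4 log2 units. The brightest is level across groups, while the fifth brightest lies lower in all 3 AS samples, at 8.77 to 8.84.

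Of the 24 members with several probe sets, 8 or 9 had the same sign at all of them in any comparison, as values near 0 allow. When probe sets shared with pseudogenes were included, 73 ribosomal protein genes could be counted, and 0 passed in each comparison, with medians of -0.013 in AS minus AA and 0.001 in SS minus SA (chosen after seeing the data).

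The genes that build and regulate ribosomes were looked at beside them. Of 29 ribosome assembly factors, 0 passed in any comparison of 2 groups, and the medians were -0.07 in AS minus AA and -0.02 in SS minus SA, against 0.02 and -0.01 over all genes. Nop58, a core protein of the particles that methylate rRNA, had -0.47 in AS minus AA (adjusted p = 0.221, limma), and Rrp9, which works with U3 RNA, had 0.24. In SS minus SA the largest were Tcof1, a nucleolar protein, at -0.21 and Nop58 at -0.19. Mitochondrial ribosomal proteins, which translate mitochondrial messages, had 0 of 76 past the threshold and medians of -0.09 and -0.02. Mrpl47, of the large mitochondrial subunit, had 8.75, 8.70 and 8.74 in AS, against 9.02, 8.92, 9.05 and 8.96 in AA (-0.26, adjusted p = 0.0567, limma). Translation initiation (28 genes) and elongation (11 genes) had 0 past the threshold in each comparison of 2 groups, with medians of -0.01 and -0.03 in AS minus AA. Eif5a, which helps ribosomes through proline stretches, had 0.14 there and did not pass. At most 1.64% of all probe sets passed in a comparison of 2 groups (SS minus SA), so counts of 0 in lists of these sizes say little.

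Among 12 genes of rRNA transcription, 2 fell in AS against AA, where 1.55% of all probe sets passed in either direction and the list median was -0.01. The genes were listed with earlier results of these data known, so the count beside that share does not test an excess. Taf1d, a subunit of the factor that directs RNA polymerase I to the rRNA promoter, had 8.43, 8.60 and 8.58 in AS and 8.76, 8.98, 8.96 and 9.01 in AA. The groups did not overlap, and the difference was -0.39 ± 0.08 (limma, adjusted p = 0.0274), at the brightest of its 7 probe sets and at no other. Polr1c, a subunit shared by RNA polymerases I and III, had 9.57, 9.51 and 9.47 in AS, against 9.79, 9.75, 9.73 and 9.92 in AA, a difference of -0.28 ± 0.06 (adjusted p = 0.0418, limma). Polr1c was higher in SS, with 9.85, 9.79 and 9.89, than in AS, by 0.33 ± 0.07 (adjusted p = 0.0312, limma), where 0.968% of all probe sets passed. Its other probe set had -0.14 and 0.19 in these comparisons and did not pass. The Taf1d call was lost in 4 of 14 fits that left out 1 sample (AA replicates 2, 3 and 4 and AS replicate 1, adjusted p = 0.0537 to 0.0801, limma). The fall of Polr1c was lost in 12 of 14, all but those without SA replicates 1 and 4 (adjusted p = 0.0524 to 0.104, limma), and its rise in 5, those without AS replicate 2, AS replicates 3 and 4 or any SS sample (0.0624 to 0.143).

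Of 20 genes listed for control of TOP mRNAs, from the mTOR pathway and RNA-binding proteins, 2 rose in SS against SA. Both are inhibitors of mTOR complex 1. In that comparison 1.64% of all probe sets passed in either direction, and the list median was -0.01. The list was chosen with earlier results of these data known, so its count beside that share is no test of an excess. Ddit4, induced by stress and glucocorticoids, had 10.17, 10.69 and 9.78 in SS, against 9.05, 8.64, 8.89 and 9.06 in SA. Every SS lung was above every SA lung, and the rise was 1.30 ± 0.23 (limma, adjusted p = 0.0101). It was 1.06 without SS replicate 3 and did not pass then (adjusted p = 0.0782, limma). Sesn2, an amino acid sensor, had 7.89, 7.92 and 7.74 in SS and 7.56, 7.35, 7.22 and 7.44 in SA, a rise of 0.46 ± 0.11 (adjusted p = 0.0444, limma). The Sesn2 call was lost in 10 of 14 fits without 1 sample, all but those without an AS sample or SA replicate 1 (adjusted p = 0.0511 to 0.207, limma).

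In AS minus AA, the same 2 genes had 0.81 (Ddit4, adjusted p = 0.083) and 0.39 (Sesn2, adjusted p = 0.0752) by limma and did not pass. Of the 12 genes of ribosome stress and p53, 1 passed in SS against SA, where 1.64% of all probe sets did. The list median was -0.03, with 5 of 12 higher. This list, too, was chosen with earlier results known. The 1 gene was Cdkn1a, a cell cycle inhibitor, which rose by 1.49 ± 0.27 (limma, adjusted p = 0.0109). It did not pass without SS replicates 1 and 2 (1.48, adjusted p = 0.0531, limma) or SS replicate 3 (1.37, adjusted p = 0.0818, limma). In the same comparison the members themselves had a median of -0.006, and S6 kinase activity or translation was not measured.

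**Figure D5:**
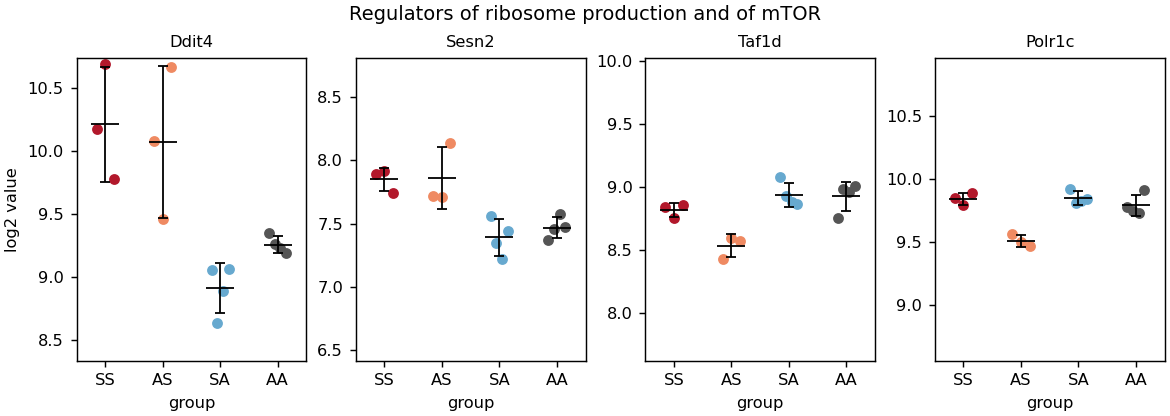
Log2 values of Ddit4, Sesn2, Taf1d and Polr1c in each sample by group, with the mean and SD (n = 3 for SS and AS, n = 4 for SA and AA); each panel spans 2.4 log2 units. Ddit4 and Sesn2 are higher in SS than in SA in all lungs, and Taf1d and Polr1c are lowest in AS.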

How the data were processed

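Left-lung RNA was read on 16 Affymetrix mouse expression arrays. Whether the near-identical arrays come from separate mice was not tested. The authors deposited 1 log2 value per probe set and array; the scale was read from the values, which run from 2.4 to 15.11, and array medians lay at 6.9 to 6.93. Limma is the tool named, per the submitters' processing notes. How background was corrected and probes summarised is not given in the sources used here. No detection calls were used. The number of arrays limits the precision.

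After 64 control probe sets were left out, 45037 were fitted in R 4.3.3 by limma 3.58.1 (lmFit and eBayes), with 1 mean per group, 14 samples and 10 residual degrees of freedom. Two-sided p-values were adjusted (Benjamini-Hochberg) across every probe set fitted, in each of the 6 comparisons, with a threshold of 0.05. AS replicates 3 and 4, and SS replicates 1 and 2, were averaged to 1 sample each. A ± gives the fitted standard error, or the SD where so named. Intervals are 95% intervals of the moderated test. The titles call the arrays biological replicates, and no label names a shared batch.

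Members had 1 platform symbol, which placed 34945 probe sets in 18193 genes and left 932 with several symbols and 9160 with none. Each gene was read from its brightest probe set. Members and lists were chosen with earlier results of these data known. Named were all members past the threshold, the 5 highest and lowest differences in a comparison, the members of role lists, and in pathway lists the genes past the threshold or the 2 largest differences. The interaction is given by its extremes, and role members and pathway lists partly by range, count or median only. The fit was tested on simulated data. Alternatives were the number of samples, a replicate block, the groups in the fit, 2 normalizations, 3 variance models, a filter on dim probe sets, 1 probe set per gene tested, other choices of probe set and each sample left out; 3 others were chosen after seeing the data. Promoter sequences are from RefSeq (GRCm38.p6).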

Additional observations from a re-analysis of the deposited data

Results flagged for a closer look

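In the groups of 4 lungs, single values far from the other 3 were looked for in the 49 members and in their median, 100 groups in all, and 3 stood out, where chance alone is known to mark about 1 group in 20. Rpl27a was high in SA replicate 1, at 7.84 against 7.26 to 7.34 in the other SA lungs. Rpl41 was low in SA replicate 4, at 13.73 against 13.82 to 13.83, and Rps19 was low in the same lung, at 12.82 against 13.11 to 13.15.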

How the results depend on the processing

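Of 346 recomputed medians and counts of members past the threshold, 343 moved by less than 0.0319, the pooled SD of the sample medians, or kept the same count. That tolerance is about as wide as the largest median, so their signs are not settled by it: signs turned in SS minus SA, SS minus AS and the interaction under at least 1 setting each. The exceptions were single members. In AS minus AA, 1 member (Rps24) passed when probe sets ending in _x_at or _s_at were left out. In SS minus AS, 1 member (Rps27) passed with all 16 arrays as separate samples, where 2214 of 45037 probe sets did. The same 1 (Rps27) passed with those arrays and the replicate block, where 2364 did. Over all settings the medians ranged from -0.035 to -0.005 in AS minus AA, from -0.032 to 0.009 in SS minus SA, from -0.045 to -0.004 in SA minus AA, from -0.033 to 0.004 in SS minus AS and from -0.039 to -0.012 in SS minus AA.

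The replicate numbers gave no clear pairing of the arrays. Deviations of same-numbered arrays correlated between -0.183 and 0.293, with a median of 0.048 against -0.027 for other pairs. Of 16 arrays, 5 correlated best with their own number. The near-identical arrays carry different numbers and were included, so a weak pairing cannot be told from none. With the replicate block, 0 members passed in the other comparisons. For single genes, 347 values were recomputed, of which 298 kept their call, 47 lost it, 2 gained it (both Rps27) and 0 changed direction. With only the AS and AA samples in the fit, the AS minus AA differences of Rps24 (adjusted p = 0.113), Taf1d (0.135) and Polr1c (0.169) did not pass in limma. Polr1c in SS minus AS also did not pass with only its 2 groups (adjusted p = 0.139, limma), and in AS minus AA it did not pass after a further quantile normalization (-0.25, adjusted p = 0.0687, limma) or with array weights (-0.26, adjusted p = 0.053, limma). The unmoderated test did not pass Rps24 (adjusted p = 0.0586), Taf1d (0.0531), Ddit4 (0.0702), Sesn2 (0.113) or Cdkn1a (0.0744). The cause of these losses was not tested.

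The number of arrays limits these intervals, 13 members rest on dim probe sets, and whether the brightest probe sets respond in proportion to RNA was not tested.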
